A study of Mus musculus with 12 samples.

Results

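The genes described here are 29 genes of cholesterol synthesis, its control by the transcription factor SREBP2, and the movement and storage of cholesterol inside the cell. They were chosen by their known function and are 29 of the 24445 genes in the deposited tables. Their messenger RNA was measured by RNA-seq in bone marrow-derived macrophages, which are macrophages that C57BL/6 marrow gives after 7 to 8 days in medium with the growth factor M-CSF, here supplied by L929 cells. The mice were wild type for DOT1L (WT) or lacked it in myeloid cells (KO); the labels name the myeloid gene Lyz2 beside the strain and give no age. DOT1L is an enzyme that methylates histone H3 in the bodies of transcribed genes. The 4 groups were untreated WT, untreated KO, WT given 10 ng/mL of Escherichia coli lipopolysaccharide (LPS) for 3 hours, and KO given the same, with 3 libraries in each that the design text calls biological replicates. The series title places the work in macrophage lipid synthesis and inflammatory responses, so the comparisons ask how these genes stand in KO against WT cells and how they move with LPS in each genotype.

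Cells make cholesterol from acetyl-CoA through mevalonate, isoprenoid diphosphates, squalene and lanosterol. When sterols in the endoplasmic reticulum run low, SCAP carries SREBP2 to the Golgi, where it is cut, and the released fragment enters the nucleus and turns on the genes of the pathway; when sterols are high, the INSIG proteins hold SCAP and SREBP2 back. In macrophages, which take up lipoproteins and dead cells, NPC1 and NPC2 move cholesterol out of lysosomes and SOAT1 stores it as ester.

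SREBP2 binds a short element in promoters, usually beside a CCAAT box, so the RefSeq promoter windows of the genes (build GRCm38.p6, 250 bases before to 50 after each start) were searched on both strands for the letters TCACNCCAC. Windows were found for 23 of the 29 genes, and Hmgcs1 alone held that match, 4.35% of the genes with a window against 1.44% of all genes with one. The shorter TCACNCCA lies within the first motif and was chosen after that count was seen. It matched Hmgcs1, Srebf2 and Msmo1, 13% of the members with a window, against 4.97% of all genes with one. Their windows are shown because they are the only ones among the 23 genes searched with a match, and because one of them is the promoter of SREBP2's own gene. Acat1, Fdps, Fdft1, Sqle, Stard4 and Npc1 had no window and were not searched. Each printed stretch holds the 150 bases that begin 250 bases before the start, with the match in capitals, for Hmgcs1 at chr13:119690101-119690250 (plus strand), Srebf2 at chr15:82147019-82147168 (plus strand) and Msmo1 at chr8:64733679-64733828 (minus strand).
Hmgcs1: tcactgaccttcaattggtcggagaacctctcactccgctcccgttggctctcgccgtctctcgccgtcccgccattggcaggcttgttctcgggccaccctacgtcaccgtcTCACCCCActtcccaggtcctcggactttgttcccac
Srebf2: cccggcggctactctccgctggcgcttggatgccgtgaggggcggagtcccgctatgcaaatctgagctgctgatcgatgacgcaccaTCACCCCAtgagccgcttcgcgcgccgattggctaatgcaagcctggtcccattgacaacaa
Msmo1: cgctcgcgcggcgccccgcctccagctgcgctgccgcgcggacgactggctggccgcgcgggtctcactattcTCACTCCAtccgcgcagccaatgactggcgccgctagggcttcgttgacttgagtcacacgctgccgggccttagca
Counted from the start, with the base before it as -1, the matches begin at -137 in Hmgcs1, -162 in Srebf2 and -177 in Msmo1. CCAAT, on either strand, was present in the windows of 21 of the 23 members, 91.3%, against 41.1% of all genes. A match describes letters in a window and is not evidence of binding.

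The libraries held 8.64 to 13.54 M counts with 1 transcript kept per gene. Levels are given in CPM (counts per M counts of a library, after TMM scaling over the 12 libraries), always in the order of replicates 1, 2 and 3. All 8 macrophage markers were present, with a summed level of 5979 to 9742 CPM, whereas all 6 lymphocyte markers stayed under 1 CPM. Some other lists were higher. Of 8 neutrophil markers, 5 reached 1 CPM in a library, and the list summed to 10.7 to 43.5 CPM. Of 5 erythroid and megakaryocyte markers, Pf4 alone did. That list summed to 89.4 to 101 CPM in untreated WT and 134 to 157 in untreated KO. With LPS it summed to 135 to 142 CPM in WT and 176 to 252 in KO. The 5 LPS response genes checked summed to 7.96 to 14 CPM without LPS and to 10598 to 13719 CPM with it. Dot1l itself stood at 82.4, 111 and 111 CPM in untreated WT and at 97.8, 85.7 and 86.4 CPM in untreated KO libraries, and at 67.3, 69.2 and 60.6 against 73.3, 65.3 and 70.2 CPM with LPS. Its gene-level count therefore did not separate the genotypes, and, since the sources used here do not give the deleted part, it does not check the labels. The sex-gene list, with Y-linked genes in it, was high in replicate 2 of every group (mean log2(CPM + 0.5) of 4.40 to 4.54 against 1.03 to 1.14), so sex was balanced over the groups.

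One WT culture bears on every comparison below. Both libraries of WT replicate 1 stood apart from the other 10, at 36.1 and 35.6 on the second principal component, which held 4.4% of the variance, against -12.9 to 3.6. The mean log2(CPM + 0.5) of the 29 genes was 5.54 in untreated WT replicate 1 beside 6.26 and 6.13 for WT replicates 2 and 3, and 5.99, 5.81 and 5.99 in KO. With LPS it was 5.42 in WT replicate 1 against 6.08 and 5.92, and 5.93, 5.75 and 5.89 in KO. WT replicate 1 was the lowest of the 6 untreated libraries for 22 of the 29 genes, 75.9%, against 33.3% of all genes tested, and the lowest with LPS for 24, 82.8%, against 29.2%. The exceptions in both conditions were Acat1, Ggps1, Fdft1, Nsdhl and Npc1, joined by Pmvk and Soat1 without LPS. Each untreated KO library lay between WT replicate 1 and both other WT libraries for 17 of the 29 genes, 58.6% against 10.7% of all genes; with LPS this held for 9, 31% against 3.88%.

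Other lists also differed between that culture and the other WT cultures. All 10 cell cycle genes on the list were present, with summed levels of 1465 to 1712 CPM in untreated WT, 1348 to 1581 in untreated KO, 1345 to 1477 in WT with LPS and 1213 to 1335 in KO with LPS. Over these genes the mean log2(CPM + 0.5) was 6.18 in untreated WT replicate 1 against 6.85 and 6.72, and 5.69 with LPS against 6.32 and 6.17. Mki67, the proliferation marker with the highest CPM of the list in that library, went the other way, at 707 against 552 and 489 CPM without LPS and 736 against 579 and 541 CPM with it. Over the 4 monocyte markers, none of them at 0 in all libraries, the mean was 2.17 against 1.61 and 1.53 without LPS. With LPS it was 4.33 against 3.49 and 3.55. In KO this mean was 2.04, 2.26 and 2.29 without LPS, and 3.94, 4.14 and 4.08 with it. Untreated WT replicate 1 thus lay within the KO range for these markers. The monocyte markers summed to 23.4 to 60.5 CPM in untreated WT, 40.1 to 57.8 in untreated KO, 169 to 229 in WT with LPS and 265 to 269 in KO with LPS. The part of these differences in the results was not tested. In bulk RNA, fewer cells of a type and less RNA per cell cannot be told apart.

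**Figure D1:**
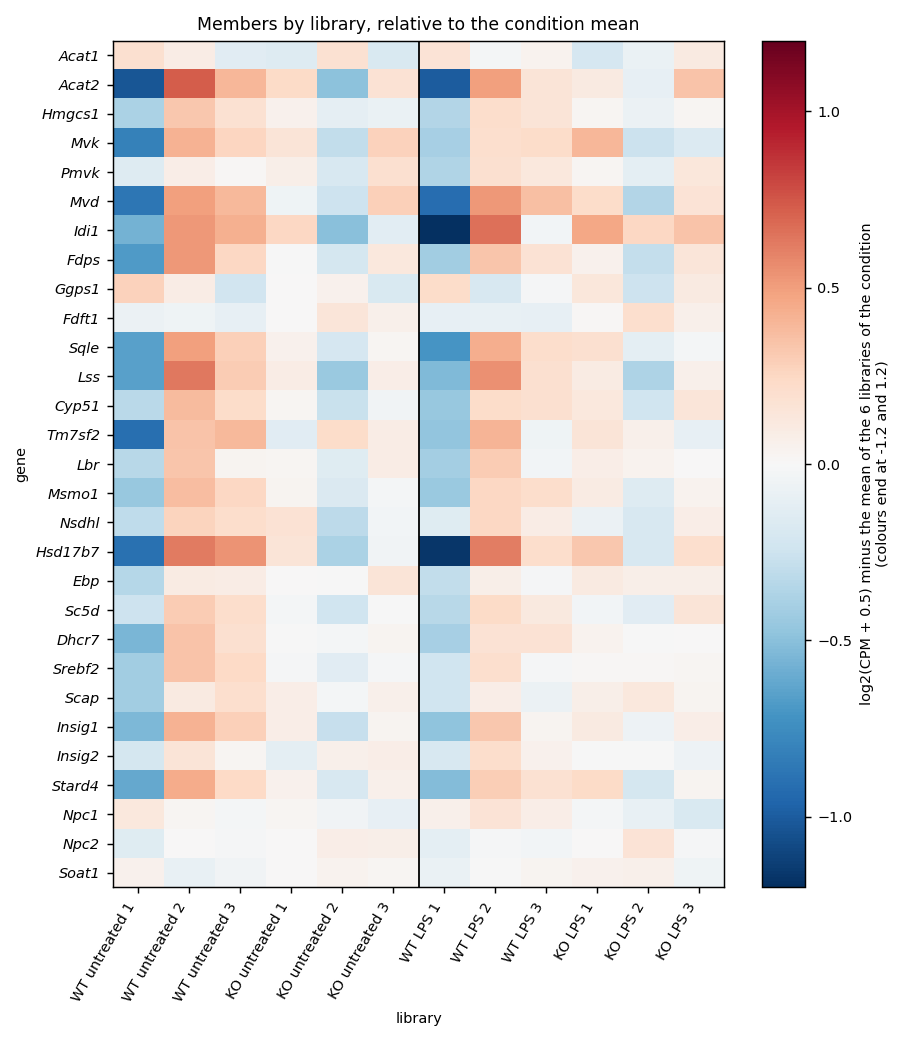
Each row is 1 of the 29 genes and each column 1 library; colour gives log2(CPM + 0.5) minus the mean of the 6 libraries of the same condition. The columns of WT replicate 1 are blue over most genes in both conditions, while the 2 other WT columns are mostly red.

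Read per transcript length, the genes differed widely in level. By the authors' RPKM, averaged over the 12 libraries, Npc2 was highest at 286, followed by Soat1 at 99.6, Msmo1 at 92.4, Hmgcs1 at 81.9 and Npc1 at 69.5. In untreated WT cells the RPKM was 257 ± 26.5 (SD, n = 3) for Npc2 and 135 ± 2.21 for Soat1, further apart than their spread. Msmo1, at 130.2 ± 42, did not differ from Soat1 beyond its spread, nor from Npc1 at 93.1 ± 1.66 and Hmgcs1 at 93 ± 26.1. The lowest 2 over all libraries were Ggps1 at 3.56 and Idi1 at 0.769 RPKM. Idi1, the isomerase that supplies dimethylallyl diphosphate, had only 355 reads in all 12 libraries.

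With LPS the genes moved in different directions. The enzymes Sqle, Lss, Msmo1 and Dhcr7, which act between squalene and cholesterol, fell in both genotypes, and so did the sterol carrier Stard4, the lysosomal Npc1 and the esterifying enzyme Soat1. Lbr fell in WT, Scap, Insig2 and Npc2 rose in both, and Srebf2 rose in KO. No gene of the early steps, from acetyl-CoA to the isoprenoids, was called in the unpaired, TMM-scaled test of all 12 libraries. In WT cells 3 of the 29 genes were called higher, where 27.6% of all genes were, and 8 lower, where 29.8% were (edgeR quasi-likelihood test on the 12 libraries, Benjamini-Hochberg adjusted p under 0.05). In KO cells 4 were called higher, against 30.3% of all genes, and 7 lower, against 30.9%. These shares are at or below the background, so the counts say nothing about the genes as a group; the median log2 change was -0.13 in WT and 0.00 in KO, against -0.05 and -0.02 over all genes tested.

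Each LPS change is relative to the typical gene. TMM factors were 1.15 to 1.26 in the untreated and 0.772 to 0.847 in the LPS libraries; scaling by total count alone, an alternative added after these factors were seen, moved the median of all genes to -0.59 in WT and -0.62 in KO. On that scale 1 of the 29 genes was higher and 20 lower in WT, where 14.4% and 63.6% of all genes were called, and 0 higher and 18 lower in KO, where 14.8% and 65.3% were. Scap, Npc2, Srebf2 and, in KO, Insig2 were then not called higher, whereas the members called lower under TMM were still called lower, by more. The number of genes above and below the median of all genes was the same under both scalings, 14 and 15 in WT and 15 and 14 in KO.

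Untreated and LPS libraries with the same genotype and number deviated together, with correlations across genes of 0.205 to 0.689 in all 6 pairs. Libraries of a genotype with different numbers had -0.6 to 0.3, so the ranges overlap. Within WT the lowest same-number value was 0.405 and the highest other value 0.3, and within KO they were 0.205 and 0.128. The labels do not state this pairing. On these correlations the libraries were also compared as paired cultures. The paired fit called 5 of the 29 genes higher and 13 lower in WT, where 32.9% and 35.1% of all genes were called, and 9 higher and 12 lower in KO, where 36.3% were called in each direction. Without both libraries of WT replicate 1, the unpaired counts in WT were 5 higher and 10 lower, against 31.3% and 29.8% of all genes.

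**Figure D2:**
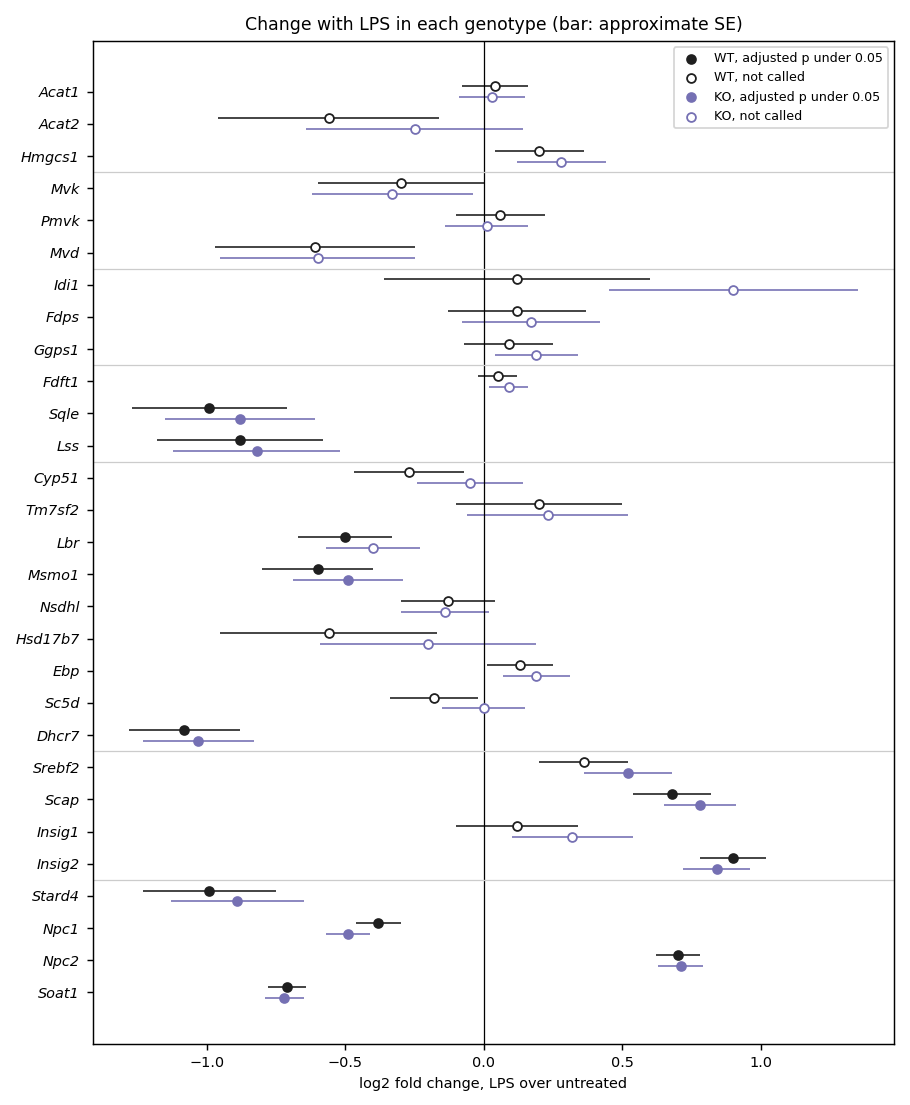
Points give the log2 fold change with LPS for each of the 29 genes in WT (black) and KO (purple), grouped by role from acetyl-CoA (top) to transport and esterification (bottom); bars are approximate SE and filled points are called in the unpaired test. The lower calls reach -1.08 in WT (Dhcr7), the higher ones 0.90 (Insig2), and the WT and KO points of each called gene overlap within their SE.

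The early steps had no call in the unpaired, TMM-scaled test of all 12 libraries. Hmgcs1, the cytosolic HMG-CoA synthase, stood at 228, 371 and 337 CPM in untreated WT and 306, 275 and 281 CPM in untreated KO libraries. With LPS it stood at 276, 407 and 391 CPM in WT and 356, 335 and 358 CPM in KO. The WT groups overlapped and the KO groups did not, and each of the 6 cultures was higher with LPS than without. Its log2 change was 0.20 ± 0.16 in WT (± is the approximate SE throughout; adjusted p = 0.324) and 0.28 ± 0.16 in KO (adjusted p = 0.151). The paired fit gave the same sizes, 0.21 ± 0.05 in WT (adjusted p = 0.0019) and 0.28 ± 0.05 in KO (adjusted p = 5.53e-05), and called both. Relative to total counts Hmgcs1 was not called in either direction.

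The thiolases that feed this step stood at 8.61 to 30.3 CPM for the cytosolic Acat2 and 37 to 48.2 CPM for the mitochondrial Acat1, over all 12 libraries. Neither was called for LPS in that test, and the paired fit called Acat2 lower in WT (-0.57 ± 0.11, adjusted p = 0.000112) and in KO (-0.24 ± 0.11, adjusted p = 0.0433). Among the mevalonate enzymes, the kinases Mvk and Pmvk ran from 7.84 to 19.1 and from 11.2 to 16.7 CPM, and the decarboxylase Mvd from 10.2 to 42.6 CPM. Mvd was lower with LPS in all 6 cultures, at -0.61 ± 0.36 in WT (adjusted p = 0.163) and -0.60 ± 0.35 in KO (adjusted p = 0.161), and the paired fit called it in WT (-0.62 ± 0.10, adjusted p = 4.56e-06) and in KO (-0.59 ± 0.09, adjusted p = 3.92e-06). It also called Mvk lower in KO (-0.33 ± 0.13, adjusted p = 0.0295), while Pmvk had values of 0.06 and 0.01 in the unpaired fits. Relative to total counts, a scale on which 63.6% of all genes were called lower in WT and 65.3% in KO, Acat1, Mvk, Pmvk, Mvd and Ggps1 were called lower in both genotypes and Acat2 in WT.

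Of the isoprenoid enzymes, Fdps, which makes farnesyl diphosphate, ran from 25.7 to 59.5 CPM, and Ggps1, which lengthens it to geranylgeranyl diphosphate, from 17.6 to 26.8 CPM. Idi1 had 1.16, 3.02 and 2.8 CPM in untreated WT, 2.42, 1.24 and 1.75 in untreated KO, 0.45, 4.35 and 2.5 in WT with LPS, and 3.72, 3.14 and 3.38 in KO with LPS. The lowest of these rests on 3 reads, and the KO groups did not overlap. The LPS change of Idi1 in KO was 0.90 ± 0.45 (adjusted p = 0.101), called in the paired fit at 0.91 ± 0.25 (adjusted p = 0.00262), as was Fdps at 0.17 ± 0.08 (adjusted p = 0.0469). Ggps1 was at 0.09 and 0.19 in WT and KO and was not called in the unpaired or the paired TMM-scaled fit.

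Of the 3 genes from squalene to lanosterol, 2 fell in each genotype, where 29.8% of all genes were called lower in WT and 30.9% in KO. Sqle, the squalene epoxidase and a rate-limiting step, stood at 98, 216 and 187 CPM in untreated WT and 159.7, 134 and 156 CPM in untreated KO. With LPS it stood at 49.1, 109 and 93 CPM in WT and 91.6, 74.1 and 79.2 CPM in KO. WT groups overlapped only through replicate 1, the KO groups did not overlap, and within every culture the LPS library was lower, by 0.80 or more on the log2 scale. Sqle fell by 0.99 ± 0.28 in WT (adjusted p = 0.00715) and by 0.88 ± 0.27 in KO (adjusted p = 0.013). The KO call was lost without the filter on low counts (-0.88 ± 0.34, adjusted p = 0.0627).

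Lss, which closes the epoxide into lanosterol, went from 36.7, 90.2 and 71.6 CPM to 22.3, 47.5 and 37.1 CPM in WT and from 61.7, 42.5 and 61.2 CPM to 34.8, 24.9 and 33.9 CPM in KO. The KO groups were apart and the WT groups overlapped. Lss fell by 0.88 ± 0.30 in WT (adjusted p = 0.0226) and by 0.82 ± 0.30 in KO (adjusted p = 0.0291). In WT the Sqle call held with any library left out, but Lss was not called when untreated replicate 2 (-0.58, adjusted p = 0.131), untreated replicate 3 (-0.81, 0.0727), LPS replicate 1 (-0.65, 0.0924) or LPS replicate 3 (-0.90, 0.0538) was left out. In KO it was not called without untreated replicate 1 (adjusted p = 0.0852) or 3 (0.0798), or without LPS replicate 2 (0.111) or 3 (0.0521). Without the low-count filter Lss was called in neither genotype (adjusted p = 0.0906 in WT and 0.105 in KO).

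Fdft1, the squalene synthase that commits isoprenoids to sterols, stood at 236, 239 and 231 CPM in untreated WT and 248, 274 and 258 CPM in untreated KO. With LPS it stood at 243, 244 and 243 CPM in WT and 263, 299 and 271 CPM in KO. Its LPS change was 0.05 ± 0.07 in WT and 0.09 ± 0.07 in KO, and WT replicate 1 was not low for it. Fdft1 shares 774 of its 4227 exon bases with Ctsb, a cathepsin gene on the other strand at 14863 to 19005 CPM; the sources used here give no strand setting for the counting, so the reads of the 2 genes cannot be told apart there. On the total-count scale Fdft1 was lower with LPS, at -0.50 ± 0.07 in both genotypes.

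Among the 9 genes that turn lanosterol into cholesterol, 3 fell in WT and 2 in KO. Over all genes, 29.8% were called lower in WT and 30.9% in KO. Dhcr7, the reductase of the last step of one branch, had 24.9, 46.6 and 41.9 CPM in untreated WT and 36.4, 36 and 37.3 CPM in untreated KO. The LPS libraries held 13.3, 20 and 20.1 CPM in WT and 18.3, 17.7 and 17.8 CPM in KO. All LPS libraries were below all untreated ones, and the KO libraries agreed closely. Dhcr7 fell by 1.08 ± 0.20 in WT (adjusted p = 0.00037) and by 1.03 ± 0.20 in KO (adjusted p = 0.000434), and these calls held in all 21 alternative fits.

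Msmo1, the methylsterol oxidase whose promoter is printed above, had 151, 269 and 247 CPM in untreated WT and 213, 184 and 204 CPM in untreated KO. With LPS it had 105, 170.0 and 166 CPM in WT and 153, 129 and 148 CPM in KO. Only the KO groups were apart. It fell by 0.60 ± 0.20 in WT (adjusted p = 0.0204) and by 0.49 ± 0.20 in KO (adjusted p = 0.0481), calls that were lost in 6 and 10 of the 21 alternatives. The WT call was lost without untreated replicate 2 (adjusted p = 0.111), without untreated replicate 3 (0.0835) and without LPS replicate 1 (0.0832), and the KO call without any 1 of the 6 KO libraries (0.0527 to 0.147) and without WT replicate 3 untreated (0.0509) or with LPS (0.0554). Both were also lost without the low-count filter (adjusted p = 0.0545 in WT and 0.105 in KO).

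Lbr, a sterol reductase that is also the lamin B receptor of the inner nuclear membrane, had 40, 63.6 and 51.5 CPM in untreated WT and 51.3, 45.5 and 53.8 CPM in untreated KO. After LPS the levels were 27.7, 45.6 and 36.1 CPM in WT and 39, 38 and 36.9 CPM in KO. Every culture was lower with LPS, yet the WT groups overlapped. Lbr fell by 0.50 ± 0.17 in WT (adjusted p = 0.0242), a call that did not hold when LPS replicate 1 (adjusted p = 0.0959), LPS replicate 3 (0.0673), untreated replicate 2 (0.147) or untreated replicate 3 (0.052) was left out; KO gave -0.40 ± 0.17 (adjusted p = 0.0548), called in the paired fit (adjusted p = 2.78e-05).

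The other sterol-ring enzymes were not called in the unpaired, TMM-scaled test, while relative to total counts Cyp51, Nsdhl, Ebp and Sc5d were called lower in both genotypes and Hsd17b7 in WT. Cyp51, the lanosterol demethylase, had 122, 199.6 and 179 CPM in untreated WT, 156, 127 and 149 in untreated KO, 99.2, 159 and 156 in WT with LPS and 149, 115 and 151 in KO with LPS. Hsd17b7, a ketosteroid reductase, had 18.4, 53.4 and 50.6 CPM in untreated WT, 38.5, 26.4 and 33.6 in untreated KO, 11.4, 40.5 and 30.5 in WT with LPS and 33, 22.9 and 30.3 in KO with LPS. Sc5d, the sterol desaturase, had 77, 113 and 106 CPM in untreated WT, 89.8, 77.2 and 90.8 in untreated KO, 68.3, 101 and 93.3 in WT with LPS and 84.2, 78.4 and 95.6 in KO with LPS. All 3 overlapped between conditions, with WT replicate 1 lowest in each. The paired fit called them lower in WT, at -0.27 ± 0.06 for Cyp51 (adjusted p = 0.00023), -0.58 ± 0.09 for Hsd17b7 (adjusted p = 3.26e-06) and -0.18 ± 0.06 for Sc5d (adjusted p = 0.0133), and in KO called Hsd17b7 alone of the 3 (-0.19 ± 0.08, adjusted p = 0.0392).

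Ebp, the sterol isomerase, had 30.6, 41.8 and 41.4 CPM in untreated WT, 39.1, 38.8 and 43.5 in untreated KO, 35.4, 45.7 and 43 in WT with LPS and 47, 45.6 and 45.6 in KO with LPS. It was higher with LPS in all 6 cultures, and the paired fit called that in KO (0.19 ± 0.07, adjusted p = 0.0231), while on the total-count scale it was lower in both genotypes. Nsdhl, the sterol dehydrogenase, had 30.2, 45.4 and 43.5 CPM in untreated WT, 42.3, 30.1 and 36.8 in untreated KO, 31, 40.9 and 36.5 in WT with LPS and 32.7, 30 and 36.4 in KO with LPS. It was not called in either TMM-scaled fit, nor was Tm7sf2, the second sterol reductase, which ran from 3.48 to 11.2 CPM.

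**Figure D3:**
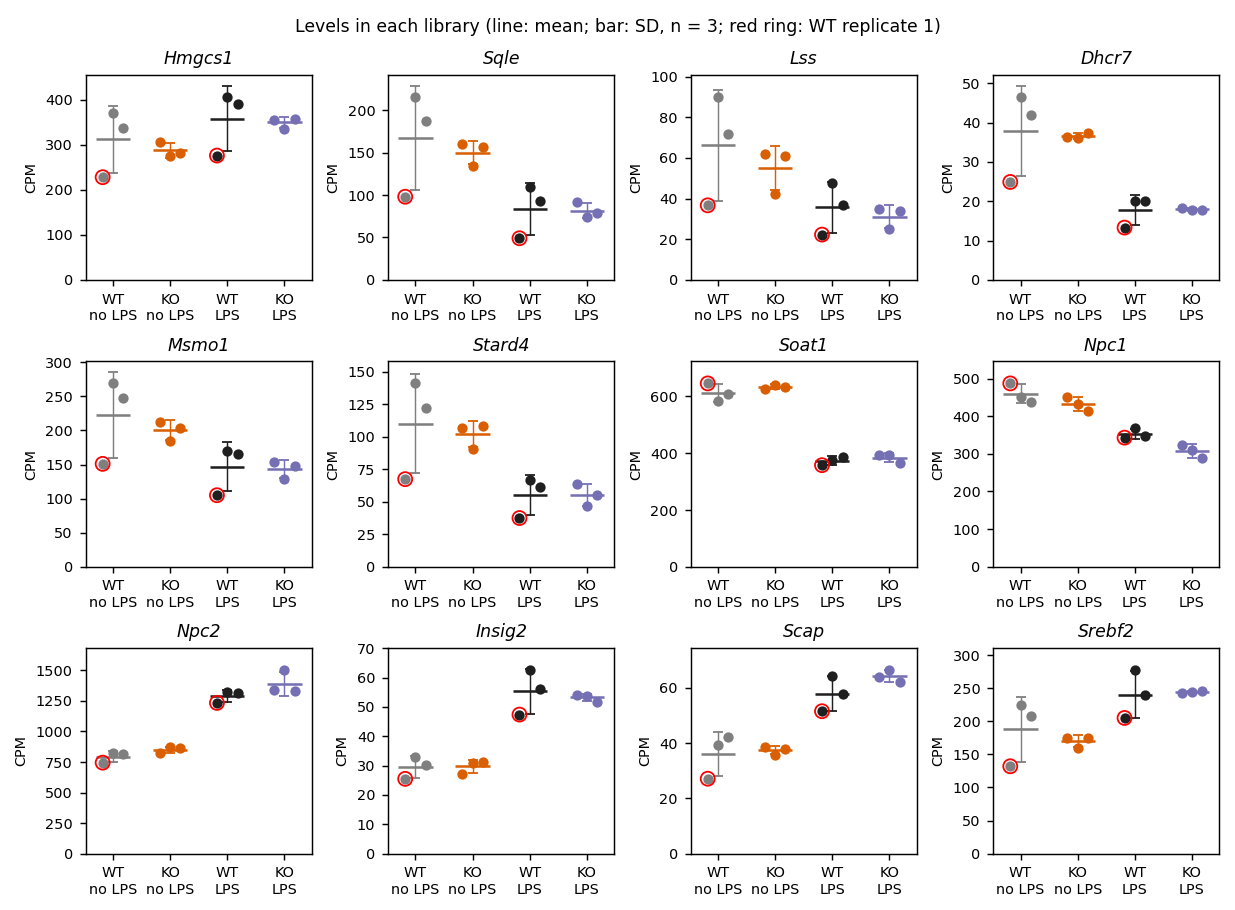
CPM of 12 of the genes in each library, by group; lines are means, bars SD (n = 3) and red rings mark WT replicate 1. Sqle, Lss, Dhcr7, Msmo1, Stard4, Soat1 and Npc1 are lower with LPS and Npc2, Insig2 and Scap higher, and the ringed points are the lowest of the 6 libraries in both conditions for all genes shown but Npc1 and, without LPS, Soat1.

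Of the 4 genes that control SREBP2, 2 rose in WT and 3 in KO relative to the typical gene, and all 4 had positive values in both genotypes. Over all genes, 27.6% were called higher in WT and 30.3% in KO, and 47.2% and 48.5% had positive values. Insig2, which retains SCAP, had 25.5, 33 and 30.1 CPM in untreated WT and 27.3, 30.9 and 31.3 CPM in untreated KO. With LPS it had 47.4, 62.5 and 56 CPM in WT and 54, 53.9 and 51.8 CPM in KO, all above every untreated library. Insig2 rose by 0.90 ± 0.12 in WT (adjusted p = 1.45e-05) and by 0.84 ± 0.12 in KO (adjusted p = 2.38e-05). On the total-count scale it was still called higher in WT, at 0.36 ± 0.14 (adjusted p = 0.0267), and was at 0.24 ± 0.13 in KO (adjusted p = 0.107).

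Scap, the escort of SREBP2, had 27.1, 39.4 and 42 CPM in untreated WT and 38.5, 35.8 and 38 CPM in untreated KO. After LPS the levels were 51.5, 64.3 and 57.8 CPM in WT and 64, 66.3 and 62.2 CPM in KO. The conditions did not overlap in either genotype. Scap rose by 0.68 ± 0.14 in WT (adjusted p = 0.000694) and by 0.78 ± 0.13 in KO (adjusted p = 0.00017), and on the total-count scale was at 0.13 and 0.18, not called.

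Srebf2, the gene of SREBP2, had 132, 224 and 208 CPM in untreated WT and 175, 160.1 and 175 CPM in untreated KO. With LPS it had 205, 277 and 239 CPM in WT and 243, 244 and 245 CPM in KO. The KO groups were apart, the WT groups overlapped, and all 6 cultures were higher with LPS. It rose by 0.52 ± 0.16 in KO (adjusted p = 0.0105), a value that turned to -0.07 ± 0.18 on the total-count scale and was not called without all libraries of replicate 2 (adjusted p = 0.062); in WT the value was 0.36 ± 0.16 (adjusted p = 0.0684), called in the paired fit (0.38 ± 0.07, adjusted p = 3.25e-05) and without both libraries of WT replicate 1 (0.28 ± 0.08, adjusted p = 0.00373).

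Insig1, the other retention factor and a classical SREBP target, had 81.6, 159 and 145 CPM in untreated WT and 126, 98 and 122 CPM in untreated KO. The LPS libraries held 100.2, 176 and 144 CPM in WT and 151, 135 and 148 CPM in KO. The KO groups did not overlap and the WT groups did. Its LPS change was 0.12 ± 0.22 in WT (adjusted p = 0.655) and 0.32 ± 0.22 in KO (adjusted p = 0.221; paired fit 0.33 ± 0.06, adjusted p = 6.08e-05).

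All 4 genes of transport and esterification were called in both genotypes, 1 higher and 3 lower. Over all genes tested, 27.6% were called higher and 29.8% lower in WT, and 30.3% and 30.9% in KO. Soat1, which esterifies cholesterol for storage in droplets, had 646, 585 and 607 CPM in untreated WT and 627, 642 and 635 CPM in untreated KO. The LPS libraries held 358, 377 and 387 CPM in WT and 393, 395 and 367 CPM in KO, far below every untreated library. Soat1 fell by 0.71 ± 0.07 in WT (adjusted p = 1.4e-06) and by 0.72 ± 0.07 in KO (adjusted p = 1.08e-06), the smallest adjusted p among the 29 genes in each genotype in the unpaired test.

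Stard4, a soluble carrier of sterols between membranes, had 67.4, 141 and 122 CPM in untreated WT and 107, 90.2 and 108 CPM in untreated KO. With LPS it had 37.5, 66.6 and 61.3 CPM in WT and 63.3, 46.5 and 55.1 CPM in KO. No LPS library reached its untreated group, although in WT the margin was small (66.6 against 67.4 CPM). Stard4 fell by 0.99 ± 0.24 in WT (adjusted p = 0.0032) and by 0.89 ± 0.24 in KO (adjusted p = 0.00582).

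The lysosomal pair split. Npc1, the membrane transporter, had 487, 452 and 438 CPM in untreated WT and 451, 431 and 415 CPM in untreated KO, and fell to 343, 369 and 347 CPM in WT and 324, 309 and 289 CPM in KO with LPS. Npc2, the soluble carrier that hands cholesterol to it, had 745, 823 and 815 CPM in untreated WT and 822, 869 and 863 CPM in untreated KO, and rose to 1234, 1324 and 1311 CPM in WT and 1341, 1501 and 1328 CPM in KO. For both genes the conditions did not overlap in either genotype. Npc1 fell by 0.38 ± 0.08 in WT (adjusted p = 0.000824) and by 0.49 ± 0.08 in KO (adjusted p = 8.57e-05), while Npc2 rose by 0.70 ± 0.08 in WT (adjusted p = 3.8e-06) and by 0.71 ± 0.08 in KO (adjusted p = 3.02e-06). On the total-count scale Npc2 was at 0.15 and 0.11, not called.

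Without LPS, no gene of the pathway separated KO from WT when all 6 libraries were used. Of the 29 genes, 0 were called in either direction by edgeR's quasi-likelihood test, 0 had an unadjusted p under 0.05, and DESeq2 called 0. Over all 11622 genes edgeR likewise called 0 (0% in each direction), with 841 at an unadjusted p under 0.05, while DESeq2 called 49. The log2 values, KO over WT, were negative for 20 genes and positive for 9, with a median of -0.09 against -0.00 over all genes, a range of -0.36 to 0.16 and SE of 0.07 to 0.39. Fdft1 alone had groups that did not overlap (0.16 ± 0.07, adjusted p = 0.694). The share of all genes with such groups was not counted, so this is no result about Fdft1. Srebf2 was at -0.12 ± 0.18 (adjusted p = 0.945), Sqle at -0.13 ± 0.25 (0.961), Insig1 at -0.13 ± 0.23 (0.958), Hmgcs1 at -0.10 ± 0.16 (0.958), Stard4 at -0.10 ± 0.23 (0.97) and Soat1 at 0.07 ± 0.08 (0.922).

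Leaving out untreated WT replicate 1 changed this. With 2 WT and 3 KO libraries, 9 of the 29 genes were called lower in KO and 0 higher, where 2.64% of 11816 genes were called lower and 3.7% higher. The 9 genes were Srebf2 (-0.32 ± 0.06, adjusted p = 0.00707), Msmo1 (-0.34 ± 0.07, 0.00876), Sqle (-0.40 ± 0.08, 0.0132), Sc5d (-0.33 ± 0.07, 0.0163), Cyp51 (-0.37 ± 0.08, 0.0204), Hmgcs1 (-0.28 ± 0.07, 0.0212), Hsd17b7 (-0.63 ± 0.13, 0.0244), Stard4 (-0.35 ± 0.08, 0.0302) and Fdps (-0.39 ± 0.10, 0.0443). Over all genes in this fit, 50.5% of values were positive and the median was 0.002. Of the 29 values, 24 were negative and the median was -0.28. All 4 SREBP2 control genes and all 9 enzymes after lanosterol had negative values. The lysosomal and storage genes were not part of this: Npc1 was at -0.02 ± 0.06, Npc2 at 0.08 ± 0.05 and Soat1 at 0.11 ± 0.06, none called. The library left out was known to be low in these genes. It was the lowest untreated WT library for 24 of the 29, 82.8%, against 44.4% of all genes. Leaving it out raises the WT mean of those genes and so lowers their KO over WT values. How much of the shared direction comes from that choice was not tested. For all 9 called genes the 3 KO libraries lay above WT replicate 1 and below the other 2 WT libraries. Without any other single untreated library, no gene was called, and without WT replicate 2 the median was 0.09. The calls thus rest on whether WT replicate 1 is included; which WT libraries are typical was not tested.

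**Figure D4:**
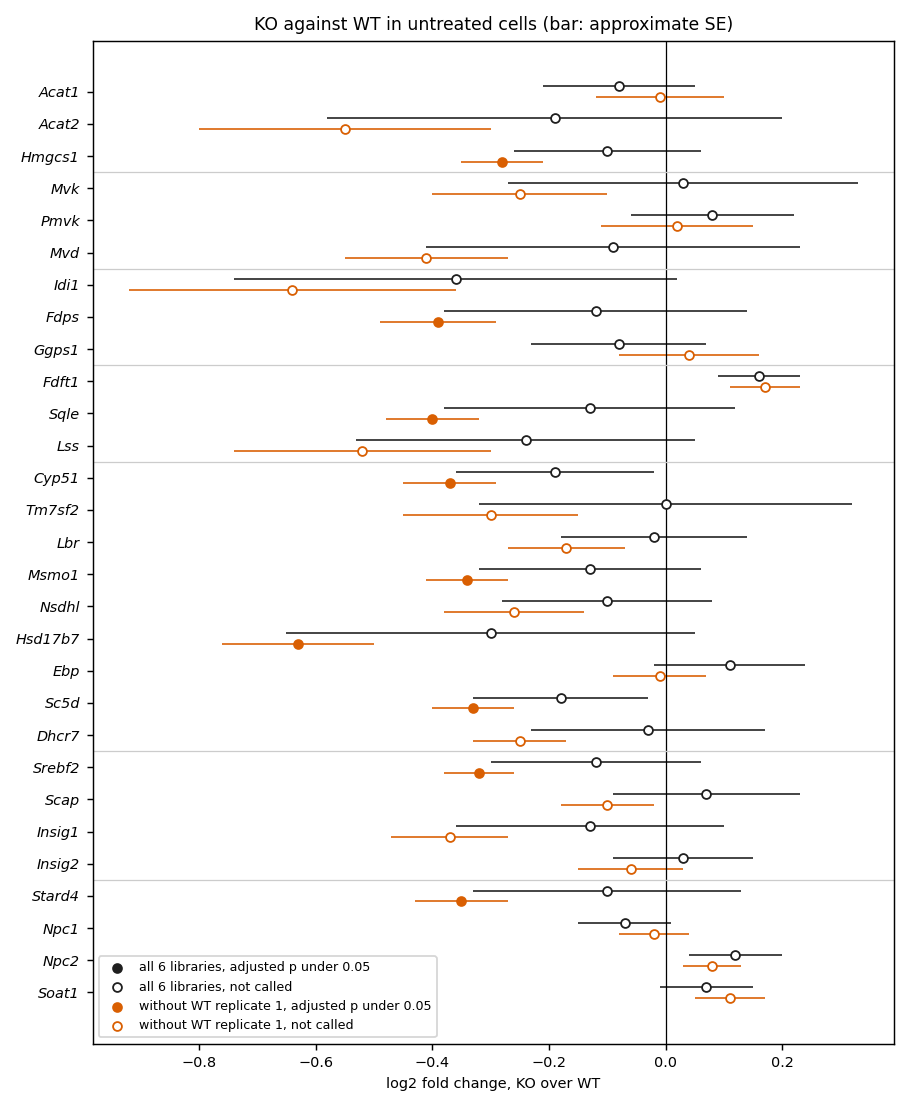
Points give the log2 fold change, KO over WT, in untreated cells for the 29 genes, with all 6 libraries (black) and without WT replicate 1 (orange); bars are approximate SE and filled points are called. With all libraries no point is filled and the median is -0.09; without WT replicate 1, 9 points are filled, all below 0, and the median is -0.28.

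With LPS, 0 of the 29 genes were called in either direction, where 1% of 11264 genes were called higher and 0.124% lower in KO, and DESeq2 called 0 of the 29. The values were positive for 11 and negative for 18, with a median of -0.01, the same as over all genes. Npc1 and Fdft1 had an unadjusted p under 0.05, as had 1553 of all 11264 genes, and with Npc2 they were the genes whose groups did not overlap. Full separation of 3 against 3 libraries has an exact 2-sided p of 0.1, and its share over all genes was not counted. Npc1 was at -0.21 ± 0.08 (adjusted p = 0.292), Fdft1 at 0.18 ± 0.08 (0.356) and Npc2 at 0.10 ± 0.08 (0.634). The next by p were Scap at 0.14 ± 0.09, Ebp at 0.14 ± 0.10 and Nsdhl at -0.15 ± 0.12. Hmgcs1 (-0.04 ± 0.13), Sqle (-0.05 ± 0.24), Insig1 (0.03 ± 0.16), Srebf2 (0.01 ± 0.10), Stard4 (-0.02 ± 0.19) and Soat1 (0.03 ± 0.08) had values near 0. A value that misses the threshold does not show equal levels. Without WT LPS replicate 1 there were again 0 calls, against 3.13% of 11454 genes higher and 1.62% lower. Of the 29 values 23 were negative, and the median was -0.18. Over all genes in that fit, 49.3% of values were positive and the median was -0.003. Among the 29, 9 genes had an unadjusted p under 0.05, as had 2007 of all 11454. The smallest adjusted p, of Sqle (-0.31 ± 0.09), was 0.0715. With LPS, replicate 1 was the lowest WT library for 26 of the 29 genes, 89.7%, against 40% of all genes. Leaving it out therefore lowers the values of those genes.

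Whether LPS acted differently in KO was tested by the interaction of genotype and LPS on all 12 libraries. By edgeR 0 of the 29 genes and 0 of 11984 were called in either direction, 0 of the 29 and 288 of all genes had an unadjusted p under 0.05, and DESeq2 called 0. The log2 difference, KO response minus WT response, was positive for 22 of the 29 with a median of 0.06 against 0.02 over all genes, and ran from -0.11 ± 0.11 for Npc1 to 0.78 ± 0.66 for Idi1. Sc5d was at 0.18 ± 0.22, Cyp51 at 0.22 ± 0.28, Srebf2 at 0.17 ± 0.22, Hsd17b7 at 0.36 ± 0.55, Insig1 at 0.20 ± 0.31, Hmgcs1 at 0.09 ± 0.23, Sqle at 0.11 ± 0.39, Stard4 at 0.11 ± 0.34 and Soat1 at -0.01 ± 0.10, each with an adjusted p of 1. In the paired fit 0 of the 29 were called and 6 had an unadjusted p under 0.05, all with positive values: Hsd17b7 (0.38 ± 0.12, adjusted p = 0.424), Cyp51, Idi1, Insig1, Acat2 and Sc5d. Of all 11984 genes, 904 had an unadjusted p under 0.05 in that fit, 540 of them with positive values. Without both libraries of WT replicate 1, edgeR called 24 genes in all and 0 of the 29.

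Other genes of sterol handling were listed apart from the 29. Of these 27 genes, for SREBP processing and sterol-regulated degradation, sterol transport, and the use of isoprenoids, 9 were called higher with LPS and 4 lower in WT, and 10 higher and 5 lower in KO. Over all genes tested, 27.6% were called higher and 29.8% lower in WT and 30.3% and 30.9% in KO, so the shares called higher were near the background and those called lower were below it. The smallest p in both belonged to Gramd1a, a carrier of plasma membrane cholesterol (2.12 ± 0.11 in WT and 2.34 ± 0.11 in KO), the ubiquitin ligase Rnf145 (1.87 ± 0.10 and 1.85 ± 0.10), and the ligase Rnf139 (1.50 ± 0.11 and 1.55 ± 0.11). Between genotypes, 0 of the 27 were called without LPS and 1 of the 26 tested with LPS, Gramd1b, lower in KO (-0.44 ± 0.09, adjusted p = 0.0416). With LPS, 1% of all genes were called higher in KO and 0.124% lower. Without LPS, Gramd1b was at -0.35 ± 0.08 (adjusted p = 0.326). In the interaction 0 were called, and Gramd1b was at -0.06 ± 0.11.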

How the data were processed

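The authors' deposited tables hold whole-number read counts and RPKM for 35745 RefSeq transcripts, in separate tables for untreated and LPS libraries. Per the submitters' processing notes, STAR 2.5.2b, SAMtools 1.3.1 and mm10 were used; how reads were counted, and with which strand setting, is not given in the sources used here. Per the labels' protocols, 700 ng of RNA was sequenced single-end at 50 bp. Here each gene took its transcript with the highest total count. Names came from RefSeq (GRCm38.p6, 35435 transcripts) and GENCODE (193); the 117 unnamed ones, 0.259% to 0.738% of counts, were left out. All 29 genes were found and passed edgeR's filter on low counts in every comparison; 9 have several transcripts and 11 share exon bases with another gene.

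Counts were scaled by TMM and tested with edgeR 4.0.16 (quasi-likelihood F test, robust; Benjamini-Hochberg over all genes, threshold 0.05; R 4.3.3), genotypes on the 6 libraries of a condition, LPS and the interaction on all 12. All adjusted p come from this test unless DESeq2 1.42.0 is named. The approximate SE is the change over the square root of F. The deposited RPKM served for levels between genes and in limma 3.58.1 (pseudocount 0.5). A floor of 3 counts is 0.222 to 0.347 CPM. Scripts were tested on simulated data. Replicate numbers pair untreated and LPS libraries of a genotype by the data alone (the report gives the correlations). KO and WT libraries of the same number had -0.106 to 0.296. They were treated as pairs only in the replicate block alternative of the genotype comparisons. The p-values measure the spread between these libraries.

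The members and gene lists were chosen with earlier results of these data known. Members called, or the 6 with the smallest p where none was, and 6 fixed genes were to be given by library; of other genes, up to 3 per comparison.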

Additional observations from a re-analysis of the deposited data

How the results depend on the processing

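Calls were recomputed under other scaling (DESeq2 size factors, total counts), DESeq2, no filter on low counts, another transcript per gene, the replicate block, single libraries left out, all libraries of replicate 2 left out, other sets of libraries and, within a condition, RPKM. For LPS in WT, 3 genes higher and 8 lower became 5 and 13 with the replicate block (cultures paired), 1 and 20 by total count, and 5 lower with only the WT libraries; leaving libraries out gave 3 to 5 higher and 5 to 11 lower. For LPS in KO, 4 higher and 7 lower became 9 and 12 with the block, 0 and 18 by total count, 8 higher with only the KO libraries and 4 lower without a filter; leaving libraries out gave 3 to 8 higher. The genes whose sign turned under a call did so by total count: in WT Acat1 (-0.51), Pmvk (-0.48), Ggps1 (-0.45), Fdft1 (-0.50) and Ebp (-0.42), and in KO Acat1 (-0.57), Pmvk (-0.59), Ggps1 (-0.39), Fdft1 (-0.50), Ebp (-0.41), Sc5d (-0.59) and Srebf2 (-0.07). That scale lowers every LPS value. For KO against WT without LPS, leaving libraries out gave 0 to 9 lower; the block there, and in the LPS and interaction comparisons of genotype, gave 0 calls. Dhcr7, Stard4, Npc1 and Soat1 kept their LPS call in both genotypes in all 21 alternatives. The cause of the other changes was not tested. Depth limits Idi1, with 355 reads.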
